A study of Homo sapiens with 6 samples.

Results

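The genes described are the nuclear-encoded subunits of the 4 respiratory chain complexes and of ATP synthase (complex V). They were taken as the protein-coding rows of the count table whose names begin with NDUFA, NDUFB, NDUFC, NDUFS, NDUFV, SDHA to SDHD, UQCR, COX4 to COX8 or ATP5. The 12 assembly-factor rows named NDUFAF or SDHAF were left out. The rule gave 91 of the 58735 genes listed: 40 of complex I, 4 of complex II, 9 of complex III, 17 of complex IV and 21 of ATP synthase. It is a rule on names. It misses CYC1 of complex III, files NDUFA4 (now assigned to complex IV) and its paralog NDUFA4L2 under complex I, and takes in ATP5S and ATP5IF1, which act on ATP synthase without being part of its core.

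All 6 libraries were RNA-seq of the wild-type line MDA-MB-231, derived from a human breast cancer without hormone receptors or HER2 and grown in high-glucose medium. The cells were stained with PKH26, a membrane dye that is diluted at each division, and grown on for 12 days. The brightest 1% were collected as slow-cycling cells (SCC, 3 libraries), and cells the protocol calls moderate and the sample labels call PKH26lo as rapid-cycling cells (RCC, 3 libraries). The labels do not say whether the 3 libraries of a group came from separate stainings, so p-values measure the spread between these libraries, which may be technical. Summed counts were 19498054 to 27831824 per library in SCC and 17655855 to 22746267 in RCC. SCC replicate 1 stood apart from its group: comparing its counts gene by gene with those of SCC replicates 2 and 3 gave chi-square values of 24.6 and 18.6 per degree of freedom, and the other pairs within a group gave 3.17 to 4.08. The cell line's markers VIM, CD44, AXL and KRT18 were expressed in both groups, and ESR1, PGR and CDH1 were under 1 CPM (counts scaled to a common library total) in every library. Among markers of other cells, CD3E, CD14, CD68, LYZ, CDH5, COL1A2, LUM and DCN were under 1 CPM in every library. VWF was at most 1.09 CPM, and PTPRC was 1.97 CPM in SCC replicate 1 and 0.143 to 0.711 CPM in the other 5. PECAM1 (2.13 to 3.24 CPM) and PDGFRB (10.0 to 12.2 CPM) overlapped between groups. COL1A1 was 11.7 to 16.1 CPM in SCC and 8.60 to 11.0 CPM in RCC (edgeR adjusted p = 0.124), and the part of other cells in the results was not tested.

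The respiratory chain moves electrons from NADH (complex I) and succinate (complex II) through ubiquinone, complex III and cytochrome c to oxygen at complex IV, and pumps protons out of the mitochondrial matrix on the way. ATP synthase lets the protons back in and makes ATP. Complexes I, III, IV and V are mosaics: a few core subunits are encoded in mitochondrial DNA, while most subunits are encoded in the nucleus, made in the cytosol and imported. All 4 subunits of complex II are nuclear. Many of the nuclear genes are known targets of the transcription factors NRF1 and GABP (an ETS factor), which helps keep the stoichiometry of the complexes.

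Most nuclear subunit genes read slightly lower in the slow-cycling cells, and few differences passed the test. Of the 84 subunit genes with enough counts to be tested, 75 had a log2 fold change (SCC over RCC) below 0, beside 49.5% of all 15881 tested genes. The median log2 fold change was -0.19, a level 12.6% lower in SCC, beside 0.00 for all tested genes. By edgeR's quasi-likelihood test with Benjamini-Hochberg adjustment over all tested genes, 2 subunit genes fell, NDUFA11 and NDUFB1. NDUFA4L2 rose, but it passed the filter on low counts only through SCC and so had to differ to be tested. Over all genes 2.07% were called, 0.378% lower and 1.69% higher. Before adjustment, 32 subunit genes were lower at p under 0.05, where 8.27% of all genes were, and 1 was higher, where 11.4% were. In 33 of the 84 (39.3%) every SCC library lay below every RCC library, beside 13.4% of all genes, and in 2 every SCC library lay above, beside 14.4%.

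The size of this difference rested partly on SCC replicate 1, and its direction was the same without that library. The median deviation of the 84 genes from the mean of the 6 libraries, on a log2 scale, was -0.25 in SCC replicate 1 and -0.01 and -0.02 in SCC replicates 2 and 3. In RCC it was 0.05, 0.13 and 0.11. SCC replicate 1 was the lowest of the 6 libraries for 62 of the 84 genes, beside only 4690 of all 15881 tested genes. Without that library the median log2 fold change was -0.10, 70 of 84 genes were below 0, and SCC replicates 2 and 3 both lay below all RCC libraries in 34 genes (40.5%, beside 17.9% of all genes). The edgeR test then called 11 subunit genes lower, where 2.10% of all tested genes were. Without SCC replicate 2 it called 12, where 1.59% of all tested genes were. It called 0 lower without SCC replicate 3 or without any 1 of the RCC libraries. With all libraries it called 8 lower under an offset for GC content (1.54% of all genes). Without a filter on low counts beyond 1 count it called 16 lower, where 0.838% of 37596 genes were. That larger set holds many genes too low for the main filter, so its share is not like the others.

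**Figure D1:**
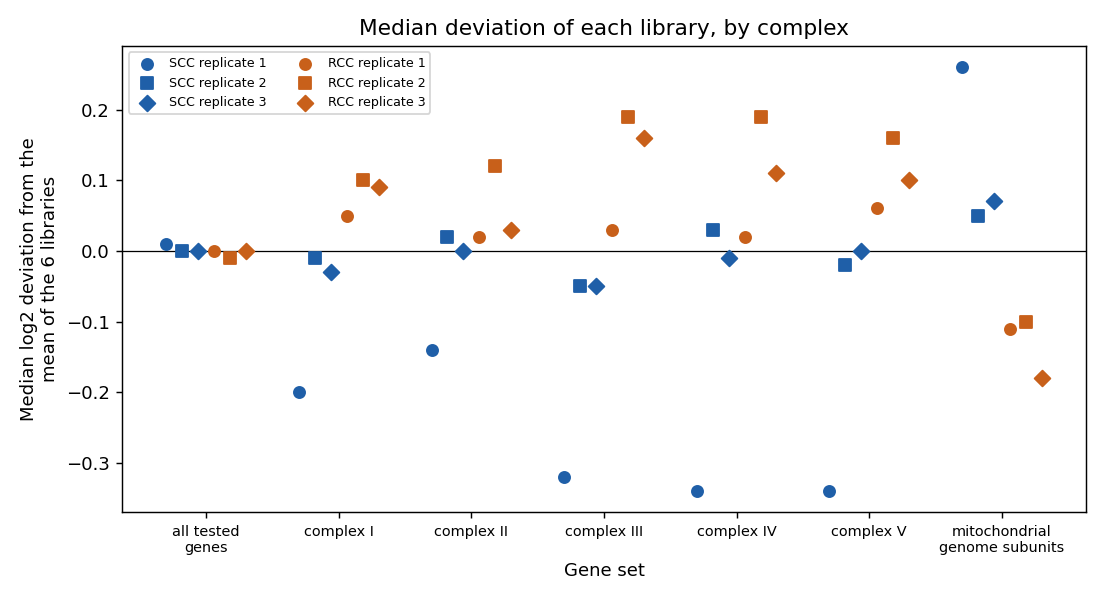
The vertical axis is the median log2 deviation of a gene set from the mean of the 6 libraries. The horizontal axis lists the gene sets, and each symbol is 1 library (blue SCC, orange RCC, shape by replicate). SCC replicate 1 is the lowest symbol in all 5 complexes and the highest in the set encoded in mitochondrial DNA.

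Levels per unit of gene length were compared as FPKM (counts per kilobase of gene length, scaled for depth), averaged over the 6 libraries. The median over the 91 genes was 26.2 FPKM, and 81 had at least 1 FPKM. By complex the medians were 16.6 for complex I, 25.5 for complex II, 27.9 for complex III, 37.4 for complex IV and 26.6 for ATP synthase. The highest was ATP5F1B, the catalytic beta subunit of ATP synthase, at 374 FPKM. COX8A followed at 254 and NDUFS5 at 233, both small supernumerary subunits, and UQCRH (98.1) and SDHB (30.6) led complexes III and II. This order depends on the gene length used, 507 bases for COX8A, 548 for NDUFS5 and 9715 for UQCRB. In mean CPM SDHA (197 in SCC, 190 in RCC) stood above SDHB (71.7 and 79.5). UQCRC1 (222 and 231) likewise stood above UQCRH (124 and 153).

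Of the 10 genes under 1 FPKM, 7 had 0 to 5 counts in each library and were not tested. They were the tissue-restricted isoforms COX4I2, COX6A2, COX6B2 and COX8C, the ATP5MG-like gene ATP5MGL, and the read-through genes ATP5MF-PTCD1 and NDUFC2-KCTD14. The ubiquitous isoforms COX4I1, COX6A1, COX6B1 and COX8A stood at 55.9, 41.6, 87.0 and 254 FPKM. COX7A1, the isoform of heart and skeletal muscle, was at 0.593 FPKM, beside 51.0 for its ubiquitous partner COX7A2. Another gene, chosen after its values were seen, was COX7B2, which is known mainly from testis and stood at 30.6 FPKM, with 17.7 to 24.9 CPM in SCC and 24.9 to 28.7 CPM in RCC.

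**Figure D2:**
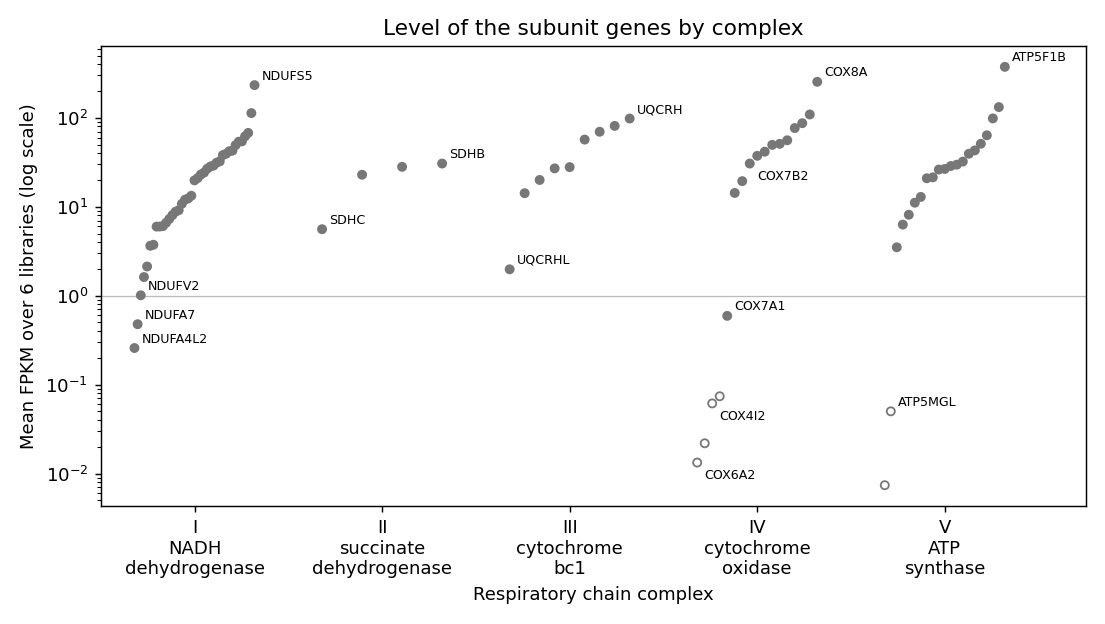
The vertical axis (log scale) is the mean FPKM over 6 libraries, and each point is 1 subunit gene, sorted within its complex. Filled points were tested, open points had 0 to 5 counts per library, and NDUFC2-KCTD14, listed at 0, is not drawn. The grey line marks 1 FPKM, and ATP5F1B at 374 FPKM is the highest point.

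NDUFA4L2, a paralog of NDUFA4 known as a gene induced in hypoxia that lowers respiratory activity, was the only subunit gene called higher. It lies on chromosome 12 (57234903 to 57240715, minus strand, GRCh38). Its level was 1.52, 1.12 and 0.996 CPM in SCC replicates 1 to 3 and 0.217, 0.239 and 0.280 CPM in RCC. The groups did not overlap, but the counts were small, 21 to 41 in SCC and 5 in each RCC library. The gene passed the filter on low counts only through SCC, so it had to differ to be tested. The separation of the groups and the adjusted p are therefore not separate support for a difference. The means were 1.21 ± 0.27 (SD, n = 3) and 0.245 ± 0.032 CPM, and the log2 fold change was 2.30 ± 0.40 (SE, edgeR adjusted p = 0.0135). Without RCC replicate 1, 2 or 3 the adjusted p was 0.108, 0.0851 and 0.0702, so the call rests on having all RCC libraries. DESeq2 gave it no adjusted p. The gene shares 33 of its 2806 exonic bases with SHMT2 on the other strand, which stood at 344 ± 20.5 CPM in SCC and 315 ± 1.82 CPM in RCC. The part of SHMT2 reads in the NDUFA4L2 counts was not tested.

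NDUFA11, a membrane-arm subunit of complex I that also touches complex III in the respirasome, fell. Its level was 11.9, 16.9 and 14.0 CPM in SCC and 21.3, 21.9 and 20.2 CPM in RCC. All 3 SCC libraries lay below all RCC libraries. Its log2 fold change was -0.57 ± 0.13 (SE, edgeR adjusted p = 0.0455), a level 32.9% lower. NDUFA11 stood at 3.64 FPKM and shares 9.7% of its exonic bases with a gene on the same strand (12.1% on either strand). The part of this overlap in its level was not tested. NDUFB1, a small membrane-arm subunit, also fell, from 28.8, 27.1 and 31.2 CPM in RCC to 16.8, 21.2 and 22.6 CPM in SCC. The groups did not overlap here either, and the log2 fold change was -0.53 ± 0.12 (edgeR adjusted p = 0.0494). Both calls sat just under the threshold. Without SCC replicate 1 they held, with adjusted p of 0.00668 for NDUFA11 and 0.00637 for NDUFB1. Without SCC replicate 3 or any 1 RCC library neither was called: the adjusted p ran from 0.119 to 0.195 for NDUFA11 and from 0.0548 to 0.218 for NDUFB1, with log2 fold changes of -0.61 to -0.55 and -0.63 to -0.48. Neither was called when at least 10 counts were required in every library (adjusted p = 0.0516 for NDUFA11 and 0.0553 for NDUFB1), nor by limma on the FPKM values in 3 fits (0.114 to 0.330 and 0.114 to 0.329).

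**Figure D3:**
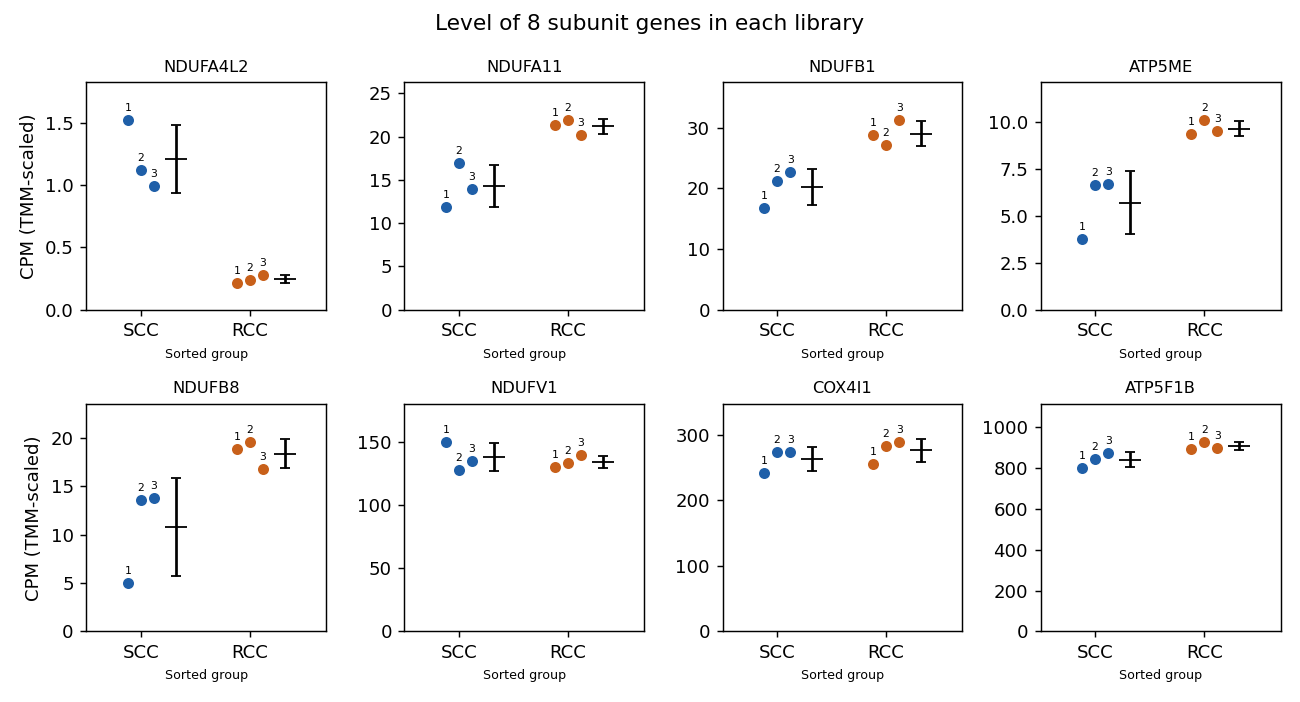
Each panel is 1 gene, with CPM on the vertical axis from 0, SCC libraries in blue and RCC in orange, numbered by replicate, and the mean with SD as a bar. NDUFA4L2 is higher in every SCC library, NDUFA11, NDUFB1, ATP5ME, NDUFB8 and ATP5F1B are lower in every SCC library, and NDUFV1 and COX4I1 overlap.

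The promoters of the genes called lower, NDUFA11 and NDUFB1, are shown with those of ATP5ME and UQCR11, which had the lowest log2 fold changes of ATP synthase and complex III. Each is the 250 bases before the RefSeq start site (GRCh38.p14), written in the direction of transcription. All 4 lie on the minus strand, at chr19:5903791-5904040, chr14:92121707-92121956, chr4:674277-674526 and chr19:1605463-1605712. Capitals mark matches, on either strand, to the NRF1 motif (GCGC, any base, then TGCGC) or the ETS motif CCGGAAG. The motifs do not overlap in these windows.
NDUFA11: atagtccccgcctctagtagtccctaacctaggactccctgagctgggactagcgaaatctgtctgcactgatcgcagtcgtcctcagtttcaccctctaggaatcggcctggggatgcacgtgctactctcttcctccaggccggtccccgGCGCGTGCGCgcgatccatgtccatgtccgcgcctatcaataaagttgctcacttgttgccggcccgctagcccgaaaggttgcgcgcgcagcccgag
NDUFB1: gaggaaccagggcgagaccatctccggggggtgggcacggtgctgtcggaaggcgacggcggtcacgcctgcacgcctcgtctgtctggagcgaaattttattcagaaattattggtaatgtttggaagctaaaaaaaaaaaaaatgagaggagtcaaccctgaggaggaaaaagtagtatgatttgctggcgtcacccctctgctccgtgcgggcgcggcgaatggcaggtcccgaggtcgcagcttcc
ATP5ME: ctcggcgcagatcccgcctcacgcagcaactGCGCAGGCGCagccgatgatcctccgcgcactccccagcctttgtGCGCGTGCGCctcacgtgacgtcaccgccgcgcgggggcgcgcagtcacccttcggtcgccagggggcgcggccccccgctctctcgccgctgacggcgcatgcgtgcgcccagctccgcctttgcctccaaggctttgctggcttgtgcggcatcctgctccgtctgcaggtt
UQCR11: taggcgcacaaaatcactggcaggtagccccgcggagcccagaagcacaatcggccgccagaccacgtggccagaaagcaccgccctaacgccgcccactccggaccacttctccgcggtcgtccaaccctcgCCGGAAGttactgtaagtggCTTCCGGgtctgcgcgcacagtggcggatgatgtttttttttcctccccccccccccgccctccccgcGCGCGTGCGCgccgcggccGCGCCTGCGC

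NDUFA11 held 1 NRF1 match, 98 to 89 bases before the RefSeq start. ATP5ME held 2, beginning 219 and 174 bases before it. UQCR11 held 2 NRF1 matches and an ETS match on each strand, and its last NRF1 match ended 1 base before the RefSeq start. NDUFB1 held none of the motifs searched, which says only that these letters are not in this window. Of the 71 subunit genes with an entry in the promoter table, 15 held the NRF1 motif (21.1%, beside 6.2% of 27305 genes) and 18 the ETS motif (25.4%, beside 10.2%). The YY1 motif AAGATGGCG was in 1 of 71 (1.4%, beside 0.8%). At least 1 of the 3 motifs was in 31 of 71 (43.7%, beside 15.8%), and 2 genes held both NRF1 and ETS. A match is a stretch of letters and not a measured binding site.

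The 7 core subunits of complex I carry the flavin and the iron-sulphur clusters on the way to ubiquinone. Their median log2 fold change was 0.01, with 3 below 0 and 4 above, and none passed even an unadjusted edgeR p under 0.05. None had all SCC libraries below all RCC libraries, beside 13.4% of all genes. In 1, NDUFS7, all SCC libraries lay above, beside 14.4% of all genes. NDUFV1, which binds NADH, was at 150, 128 and 135 CPM in SCC and 130, 133 and 140 CPM in RCC. NDUFS1, which holds several clusters, was at 152, 163 and 165 CPM and 171, 173 and 160 CPM. The groups overlapped in both, and the log2 fold changes were 0.04 and -0.07.

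NDUFS8 and NDUFS7 carry the last clusters before ubiquinone. NDUFS8 overlapped between groups (log2 fold change 0.01, edgeR adjusted p = 0.940). NDUFS7 was 38.9 CPM in SCC replicate 1, 26.2 and 28.4 CPM in the other SCC libraries and 25.2 to 26.2 CPM in RCC. Its log2 fold change of 0.29 (edgeR adjusted p = 0.261) was 0.10 without SCC replicate 1. NDUFV2, chosen after its values were seen, had the highest log2 fold change of the core, 0.42 ± 0.24 (edgeR adjusted p = 0.353), with overlapping groups at 1.77 to 3.53 CPM.

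The 32 tested complex I genes outside the core had a median log2 fold change of -0.20, with 29 below 0. Of the 32, 17 (53.1%) were lower in every SCC library than in any RCC library, beside 13.4% of all genes. NDUFA7 had the lowest value, -0.91 ± 0.40 (edgeR adjusted p = 0.245), at 0.379 to 0.562 CPM in SCC and 0.559 to 1.13 CPM in RCC, and it passed the filter only through RCC. NDUFC1, a small membrane-arm subunit, was 20.1, 21.1 and 21.5 CPM in SCC and 24.1, 26.8 and 26.9 CPM in RCC. Its groups did not overlap, but the adjusted p was 0.109 (edgeR, log2 fold change -0.31 ± 0.09). NDUFB8, chosen after its values were seen, showed how far 1 library could go: 4.97 CPM in SCC replicate 1, against 13.6 and 13.8 CPM in the other SCC libraries and 16.8 to 19.6 CPM in RCC. Its log2 fold change was -0.79 (edgeR adjusted p = 0.171) with that library and -0.43 (adjusted p = 0.0131) without it. NDUFB8 shares 33.8% of its exonic bases with a gene on the same strand (48.5% on either strand). The part of this overlap in its level was not tested. NDUFS5 and NDUFA4 overlapped between groups, with log2 fold changes of -0.12 and -0.14. For NDUFA4 the value was 0.01 without SCC replicate 1.

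**Figure D4:**
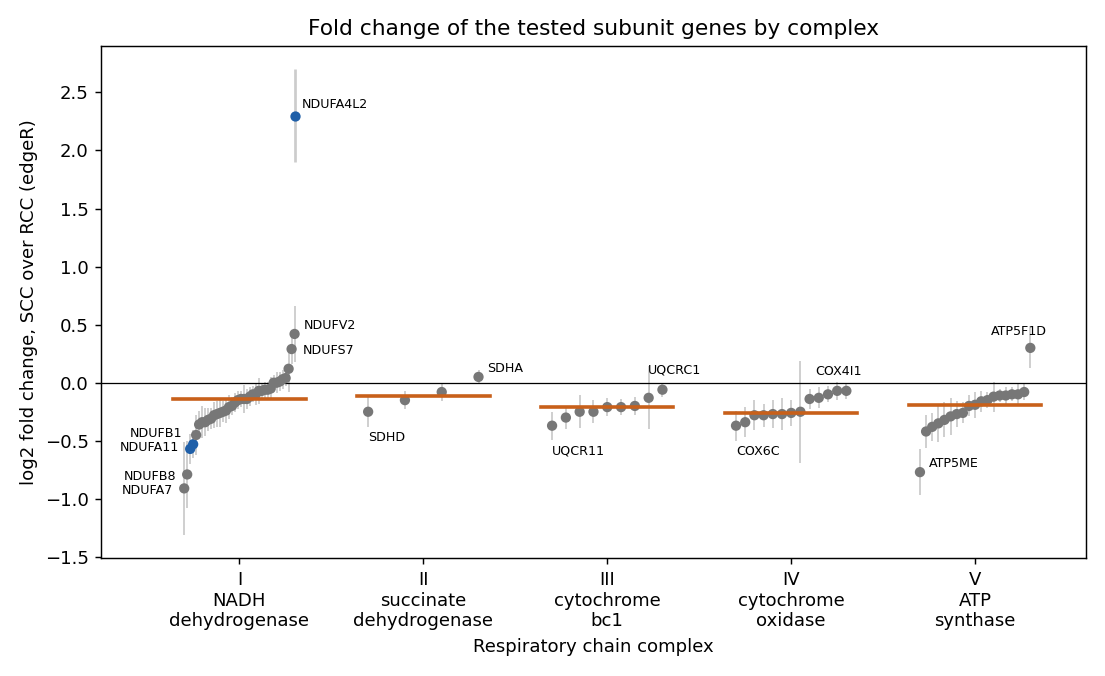
Each point is the edgeR log2 fold change (SCC over RCC) of 1 tested subunit gene with its SE, sorted within its complex, and orange bars are medians. The 3 genes called (adjusted p under 0.05) are blue: NDUFA4L2 at 2.30, NDUFA11 at -0.57 and NDUFB1 at -0.53. All points of complexes III and IV lie below 0.

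Complex II, which is also the succinate dehydrogenase of the TCA cycle, was close between groups. SDHA, its flavin subunit, was 202, 193 and 195 CPM in SCC and 186, 194 and 190 CPM in RCC, with a log2 fold change of 0.05 ± 0.06 (edgeR adjusted p = 0.672). SDHB, its iron-sulphur subunit, had -0.15 ± 0.08 (edgeR adjusted p = 0.298) with overlapping groups. SDHD, a membrane anchor, was 56.4 CPM in SCC replicate 1, 83.7 and 79.3 CPM in the other SCC libraries and 83.8 to 90.3 CPM in RCC. Its log2 fold change of -0.25 was -0.10 without SCC replicate 1, and neither passed the test.

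In complex III all 9 genes under the rule had a log2 fold change below 0 (median -0.21, and -0.15 without SCC replicate 1). None passed the adjusted test. At an unadjusted edgeR p under 0.05, 6 were lower, where 8.27% of all genes were. UQCR11, a small subunit of the cytochrome bc1 complex, was 21.2, 30.2 and 28.8 CPM in SCC and 34.4 to 34.8 CPM in RCC, a log2 fold change of -0.37 ± 0.12 (edgeR adjusted p = 0.142). UQCRH, the hinge subunit that binds cytochrome c1, was 104, 133 and 136 CPM in SCC and 144, 162 and 153 CPM in RCC. UQCRFS1, the Rieske iron-sulphur protein, was 92.0, 87.6 and 92.2 CPM in SCC and 98.2, 98.8 and 117 CPM in RCC. Groups did not overlap in any of these 3, and without SCC replicate 1 UQCRH and UQCRFS1 were called (edgeR adjusted p = 0.0348 and 0.0454). UQCRC1, a core subunit related to mitochondrial processing peptidases, overlapped, with a log2 fold change of -0.06 ± 0.06. With the offset for GC content it was -0.22 and the gene was called lower (edgeR adjusted p = 0.0356). UQCRHL, a near copy of UQCRH, stood at 1.98 FPKM, with overlapping groups and a log2 fold change of -0.13 ± 0.27. How the counting divided reads between the pair is not stated, so the UQCRHL level is uncertain.

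In complex IV all 13 tested genes were below 0. The median of -0.26 was the lowest of the 5 complexes with all libraries and was -0.10 without SCC replicate 1, as for ATP synthase. COX6C, a small membrane subunit, was 75.9, 116 and 110 CPM in SCC and 126, 134 and 128 CPM in RCC, and its log2 fold change was -0.37 ± 0.13 (edgeR adjusted p = 0.168). Without SCC replicate 1 it was -0.20 with an adjusted p of 0.0217. COX7A2, the ubiquitous isoform of subunit VIIa, was 75.4, 94.8 and 96.8 CPM in SCC and 102, 110 and 112 CPM in RCC, with groups apart (edgeR adjusted p = 0.162). COX6A1, another ubiquitous isoform, was apart only narrowly, at 40.3 to 57.9 CPM in SCC and 58.1 to 66.7 CPM in RCC (edgeR adjusted p = 0.259). COX6C, COX7A2 and COX6A1 were the only 3 of the 13 with groups apart (23.1%, beside 13.4% of all genes). COX4I1, through which ATP is known to regulate the complex, overlapped: 242, 274 and 274 CPM in SCC and 255, 283 and 289 CPM in RCC (log2 fold change -0.07 ± 0.08). COX6B1, COX8A, COX7A1 and COX7A2L, the last a supercomplex factor, overlapped too, with log2 fold changes of -0.13, -0.10, -0.25 and -0.14.

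In ATP synthase 18 of 19 tested genes were below 0, and none passed the adjusted test. The median log2 fold change was -0.11 for the 5 genes of F1 (catalytic head and central stalk) and -0.11 for the 3 genes of the c ring. It was -0.26 for 4 of the peripheral stalk and -0.35 for 5 small membrane subunits. Without SCC replicate 1 these were -0.06, -0.09, -0.12 and -0.16. ATP5F1B was 802, 845 and 874 CPM in SCC and 892, 928 and 897 CPM in RCC, and ATP5F1A, the alpha subunit, was 391, 427 and 431 CPM and 443, 457 and 440 CPM. Both had groups apart at small log2 fold changes, -0.11 ± 0.06 and -0.10 ± 0.06 (edgeR adjusted p = 0.344 and 0.397). ATP5F1E, the epsilon subunit of the central stalk, was 106, 143 and 136 CPM in SCC and 141, 175 and 184 CPM in RCC, with a log2 fold change of -0.38 ± 0.12 (edgeR adjusted p = 0.137, and 0.0289 without SCC replicate 1).

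ATP5ME, subunit e, which helps ATP synthase form dimers, was 3.78, 6.65 and 6.69 CPM in SCC and 9.35, 10.1 and 9.51 CPM in RCC. The groups were apart, and the log2 fold change was -0.77 ± 0.20 (edgeR adjusted p = 0.0775). Without SCC replicate 1 it was -0.53 and the gene was called (edgeR adjusted p = 0.0221). It shares 61.6% of its exonic bases with MYL5 on the other strand, which overlapped between groups at 9.63 ± 1.60 CPM in SCC and 8.49 ± 2.14 CPM in RCC. ATP5F1D, the delta subunit of the central stalk, was 145 CPM in SCC replicate 1 and 80.2 to 90.9 CPM in the other 5 libraries. It was the only ATP synthase gene above 0 (log2 fold change 0.30), and its value was 0.02 without that library. ATP5IF1, the inhibitor that stops ATP hydrolysis, overlapped, with a log2 fold change of -0.08 ± 0.07.

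**Figure D5:**
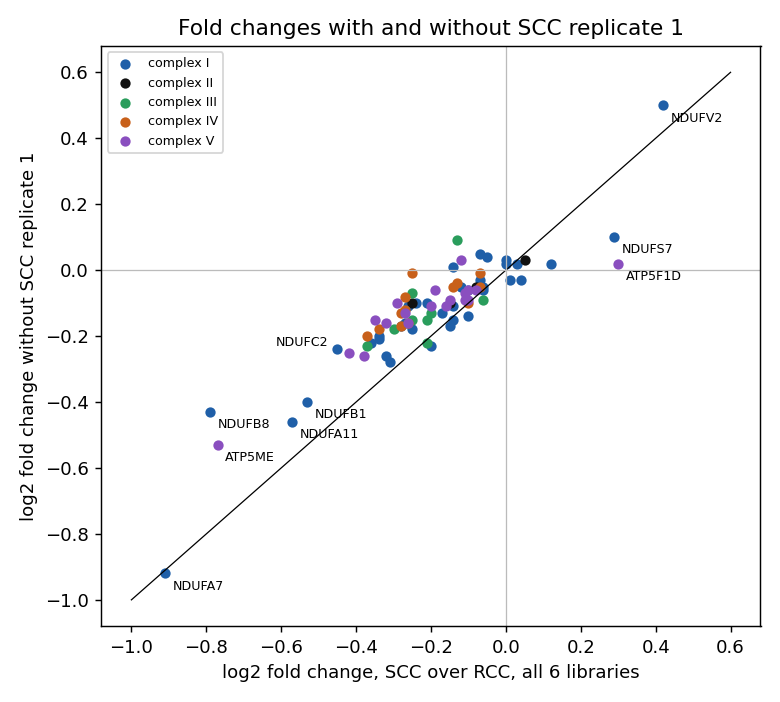
Each point is 1 of 83 tested subunit genes, coloured by complex, with the log2 fold change from all 6 libraries on the horizontal axis and without SCC replicate 1 on the vertical axis. The line marks equal values, and NDUFA4L2 (2.30 and 2.10) is beyond the axes. Most points in the lower left lie above the line, nearer 0 without that library.

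The values went with GC content. Among all tested genes in the GC range of the lower-GC subunit genes (35.0% to 47.5%), the median log2 fold change was -0.09, and among those in the range of the higher-GC genes it was 0.10. The 42 lower-GC subunit genes had a median of -0.25 and the 42 higher-GC genes -0.12, each below the genes of like GC. With an offset for GC in each library both medians were -0.17. SCC replicate 1 was the lowest library for 38 of the 42 lower-GC subunit genes, beside 3675 of the 7263 genes of like GC. For the higher-GC subunit genes it was the lowest in 24 of 42, beside 776 of 7760. Overlap with other genes also bears on the levels, since use of strand was not stated: 59 of the 91 genes overlap another gene, and 160 pseudogene rows are named after 46 of them. The 39 tested genes that share no exonic base had a median of -0.15, and the 17 that share at least 20% had -0.20 (-0.10 and -0.11 without SCC replicate 1). NDUFV2, NDUFA7, NDUFA13 and NDUFA9, subunits complex I needs, stood at 1.01, 0.478, 2.13 and 1.62 FPKM. They share 28.4%, 32.3%, 21.0% and 10.6% of exonic bases with genes on the same strand. The pseudogene row NDUFV2P1 stood at 2.81 FPKM, above NDUFV2, and how the counting divided reads between the 2 is not stated. The levels of NDUFV2, NDUFA7, NDUFA13 and NDUFA9 are therefore uncertain. COX8A (34.5%) and NDUFB8 (33.8%) share more of their exonic bases on the same strand, so their levels are uncertain as well. The part of overlap and pseudogenes in them was not tested.

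As a share of all counts, the 91 genes held 0.654% (95% Wilson interval 0.651% to 0.657%), 0.774% (0.770% to 0.778%) and 0.767% (0.764% to 0.771%) in SCC replicates 1 to 3. In RCC they held 0.809% (0.805% to 0.813%), 0.844% (0.840% to 0.848%) and 0.835% (0.831% to 0.840%). The intervals cover counting error only. All SCC shares lay below all RCC shares, with means of 0.732% ± 0.068 and 0.829% ± 0.018 (SD, n = 3). In bulk libraries fewer cells of a type and less RNA per cell cannot be told apart.

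Of the 13 subunits encoded in mitochondrial DNA 11 had a log2 fold change above 0, beside 8021 of all 15881 tested genes. In 7 every SCC library lay above every RCC library, beside 14.4% of all genes. In 1 every SCC library lay below, beside 13.4%. Together the 13 held 4.29% ± 0.15 of counts in SCC and 3.67% ± 0.14 in RCC. Their median log2 fold change was 0.27 (0.14 without SCC replicate 1). By the edgeR test 5 of the 13 rose, where 1.69% of all tested genes did. They were MT-ND1 of complex I, MT-CYB of complex III, MT-CO1 and MT-CO2 of complex IV and MT-ATP6 of ATP synthase. Their log2 fold changes were 0.47, 0.42, 0.32, 0.55 and 0.33, with edgeR adjusted p of 0.0320, 0.0218, 0.0488, 0.00172 and 0.0328. MT-CO2, which takes electrons from cytochrome c, was 4052, 3700 and 3701 CPM in SCC and 2551, 2810 and 2453 CPM in RCC. It stayed called without any 1 library, whereas the other 4 were not called without any 1 RCC library (edgeR adjusted p 0.0804 to 0.195), nor MT-CO1 and MT-ATP6 without SCC replicate 3 (0.0956 and 0.0982). MT-CO1 was also not called with upper-quartile scaling (0.0586), the length offset (0.0509) or at least 10 counts in every library (0.0668). Limma on FPKM called none of the 4, and it called MT-CO2 with its filter but not without it (adjusted p = 0.669). MT-ND3 (chosen after its values were seen) had all SCC libraries below all RCC libraries, at 1012 to 1479 and 1625 to 1891 CPM (log2 fold change -0.47 ± 0.12, edgeR adjusted p = 0.0717), and MT-ND4L had -0.02. With counts outside mitochondrial DNA as the total, the nuclear subunits held 0.767% ± 0.070 in SCC and 0.863% ± 0.019 in RCC.

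Genes that serve the chain without being subunits under the rule were mostly not called. Of 15 electron carriers and enzymes of ubiquinone synthesis none passed (median log2 fold change -0.01). CYC1, the cytochrome c1 of complex III, was 359, 290 and 307 CPM in SCC and 301, 290 and 289 CPM in RCC, with overlapping groups (0.12, edgeR adjusted p = 0.427). The smallest p was that of CYCS, cytochrome c, at 264, 372 and 350 CPM in SCC and 393, 411 and 380 CPM in RCC (-0.27, edgeR adjusted p = 0.217). Of 51 tested assembly factors none passed (median -0.14, with 35 below 0). COA6, a copper-handling factor for complex IV, was 18.1, 21.3 and 20.1 CPM in SCC and 25.0, 27.2 and 24.5 CPM in RCC (-0.37, edgeR adjusted p = 0.0852). LYRM7, which loads the Rieske protein into complex III, had -0.32 (adjusted p = 0.0999). NDUFAF7, a complex I methyltransferase, had -0.37 (adjusted p = 0.168), and TMEM70, which helps build ATP synthase, -0.15 (adjusted p = 0.367).

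None of 11 regulators of respiratory gene transcription passed (median 0.09). The smallest p was that of PPRC1, a PGC-1-related coactivator, at 197, 169 and 162 CPM in SCC and 149, 142 and 148 CPM in RCC (0.27, edgeR adjusted p = 0.124). None of 14 TCA cycle genes passed (median 0.02), with SUCLG1, of succinyl-CoA ligase, at -0.23 (adjusted p = 0.159), and none of 5 carriers of ADP, ATP and phosphate, with SLC25A4 at -0.12 (adjusted p = 0.357). Among 11 genes of pyruvate entry 1 rose, where 1.69% of all tested genes did: PDK4, a kinase that shuts off pyruvate dehydrogenase. It was 9.24, 8.33 and 11.7 CPM in SCC and 3.22, 2.91 and 3.02 CPM in RCC, a log2 fold change of 1.67 ± 0.17 (edgeR adjusted p = 3.7e-04), and it stayed called without any 1 library.

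Ribosomal protein genes, also made in large amounts from many small nuclear genes, are given for comparison. The 84 tested cytosolic ribosomal protein genes had a median log2 fold change of -0.15 (-0.08 without SCC replicate 1). Of the 84, 35 (41.7%) were lower in every SCC library than in any RCC library, beside 13.4% of all genes. The 78 mitochondrial ribosomal protein genes had a median of -0.10, with 24 (30.8%) so placed. None of either passed the adjusted test. At an unadjusted p under 0.05 edgeR gave 31 lower and 0 higher for the first and 14 lower and 1 higher for the second. Over all tested genes it gave 8.27% lower and 11.4% higher.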

How the data were processed

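RNA-seq was measured in 3 SCC and 3 RCC libraries of MDA-MB-231. The deposited gene counts and FPKM values were made by the authors, with HISAT2 2.0.5 and featureCounts 1.5.0-p3 named in the submitters' processing notes. The genome build and the use of strand are not given in the sources used here. All 58735 rows match gene IDs and positions of GENCODE 29 on GRCh38. Each deposited FPKM equals, within 0.1%, the count divided by gene length and 1 constant per library.

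Counts were filtered (filterByExpr by group, minimum count 10), TMM-scaled and tested on group with edgeR 4.0.16 in R 4.3.3 (glmQLFit, two-sided, Benjamini-Hochberg over 15881 genes, adjusted p under 0.05). The fit was also run on simulated counts with the same dispersion for every gene and no library apart from its group. The data differ in this, so that run does not show how the fit performs on them. CPM values use TMM-scaled totals. SE is the log2 fold change over the square root of F. Library deviations used log2(CPM + 0.5). GC content is that of the longest GENCODE 29 transcript. Promoters came from RefSeq (GRCh38.p14). They were matched for 71 of 91 genes.

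The named genes were those called, the highest and lowest fold change and the highest FPKM of each complex, the 6 smallest p, isoform and catalytic subunits and, in each related list, the genes called or else the smallest p. Some genes of these lists are not reported here. Members and lists were chosen with earlier results of these data known. In all, 19 alternative fits were run: DESeq2 1.42.0, 2 scalings, 2 filters, replicate block, length and GC offsets (lowess span 0.3), limma 3.58.1 on log2(FPKM + 1) and log2(FPKM + 0.1), and each library left out.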

Additional observations from a re-analysis of the deposited data

How the results depend on the processing

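The median log2 fold change of the subunit genes stayed below 0 in all 19 alternatives: -0.23 to -0.10 over the libraries left out in turn (-0.10 without SCC replicate 1), -0.17 with the GC offset and -0.15 to -0.21 in the others. The member share of counts, SCC minus RCC, was -0.098 percentage points, -0.096 without mitochondrial counts, -0.12 to -0.059 with a library left out, and -0.084 with TMM-scaled totals, an alternative added after seeing the data. Whether the replicate numbers pair the libraries is not stated. Correlations of deviations were -0.02, 0.06 and -0.12 between SCC and RCC libraries of the same number. Between unlike numbers they were -0.13 to 0.14, and with 3 libraries per group they cannot decide on pairing. With the replicate block the median was -0.20.

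Counts of calls moved far more, and the cause was not tested. Subunit genes called lower were 2, and 5 with DESeq2, 16 with every gene of at least 1 count tested, 0 with at least 10 counts required in every library, 4 with the replicate block, 8 with the GC offset, 30 with the replicate block and GC offset, 0, 0 and 0 with limma, and 0 to 12 with a library left out. Those called higher were 1, and 0 with DESeq2 (which gave NDUFA4L2 no adjusted p), 2 with every gene of at least 1 count, 0 with at least 10 counts in every library, 0 with each limma fit and 0 to 1 with a library left out. Over all tested genes, the genes higher in SCC numbered 268, and 474 with DESeq2, 995 with every gene, 523 with the GC offset, 621 with the replicate block and GC offset, 130 and 117 with limma on log2(FPKM + 1) and log2(FPKM + 0.1), 48 without its filter and 99 to 642 with a library left out. In the same order, the genes lower in SCC numbered 60, and 182, 315, 245, 432, 36, 34 and 1, 106 with the replicate block alone, and 8 to 343 with a library left out.

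Among the named genes, signs turned for the following. NDUFS8 was -0.12 with the GC offset, -0.12 with it and the replicate block, -0.01 with upper-quartile scaling, -0.01 with the length offset with or without the block, and -0.04 to 0.05 with a library left out (-0.03 without SCC replicate 1, -0.04 without RCC replicate 1). NDUFV1 was -0.12 and -0.12 under the GC offset and the block with it, and -0.03 (without SCC replicate 1) to 0.07 with a library left out. NDUFS1 was 0.00 with the GC offset and 0.00 with the block added, and COX8A 0.00 with the length offset, 0.00 with the block added, -0.24 with the GC offset and -0.24 with the block and GC offset, where it was called. With a library left out NDUFA4 was -0.27 to 0.01 (without SCC replicate 1), UQCRHL -0.46 to 0.09 (without SCC replicate 1; 0.00 without RCC replicate 3) and COX7A1 -0.63 to 0.01 (without RCC replicate 2). Low counts limit what can be said of the 7 untested genes and of NDUFA4L2, NDUFA7 and COX7A1, which passed the filter in 1 group only.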
